A study of Homo sapiens with 12 samples.

Results

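LSD1, the product of KDM1A, is a flavin-dependent demethylase that removes methyl groups from lysine 4 of histone H3 (H3K4). It works inside a corepressor complex in which a CoREST protein (RCOR1, RCOR2 or RCOR3) holds LSD1 and a histone deacetylase together on nucleosomes. The genes described here are 8 components of that complex, taken by symbol: KDM1A, the CoREST scaffolds RCOR1 and RCOR3, the deacetylases HDAC1 and HDAC2, and the accessory subunits PHF21A, HMG20B and ZMYM2. All 8 were among the 13001 genes of the count and TPM tables (TPM is an abundance scaled to gene length and library size), and all 8 passed the filter on low counts. In neurons a microexon named 8a is spliced into LSD1, and SRRM4, a neural splicing factor, promotes the inclusion of microexons.

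RNA-seq libraries came from LNCaP clone FGC, a human prostate cancer line of luminal character. Cells at passage 8 were transiently transfected with Lipofectamine, and 4 groups of 3 libraries were made: LSD1+8a (the LSD1 isoform that contains microexon 8a), LSD1 (the isoform without it), SRRM4, and empty vector (EV). All groups shared the line, the passage and the transfection reagent, and RNA was poly(A)-selected. The plasmid promoters and the share of transfected cells are not given in the sources used here. Whether replicate libraries stem from separately grown cultures is not stated in the labels. The p-values therefore set group differences only against the variation between libraries, and that variation may be technical.

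Library totals, in M counts (mega), were 12.11 to 13.36 M in LSD1+8a, 11.66 to 12.57 M in LSD1, 10.88 to 11.49 M in SRRM4 and 12.75 to 13.57 M in EV. All 9 luminal prostate markers checked were detected in every library, with summed TPM of 6189 to 6388 in LSD1+8a, 6432 to 6639 in LSD1, 5692 to 5727 in SRRM4 and 6223 to 6329 in EV. Of 5 fibroblast markers, COL1A1 and COL3A1 were measured and together reached at most 11.3 TPM. Of 6 leukocyte and endothelial markers, CD68 and VWF were measured and reached at most 11.04 TPM. The symbol SRRM4 was not analysed here, so the SRRM4 group could not be checked by its own transcript.

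In the GENCODE v29 annotation of GRCh38, KDM1A lies at chr1:23019443-23083689, RCOR3 at chr1:211258377-211316385 and HDAC1 at chr1:32292086-32333635. RCOR1 lies at chr14:102592661-102730576, HMG20B at chr19:3572777-3579088 and ZMYM2 at chr13:19958670-20091829, and these 6 genes are on the plus strand. HDAC2, at chr6:113933028-114011308, and PHF21A, at chr11:45929323-46121178, are on the minus strand.

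The transfected isoforms differ, as labelled, by microexon 8a, which has 12 bases in that annotation. There (the submitters' processing notes name hg19), microexon 8a is coding exon 10 of the 21 exons of transcript KDM1A-202. It lies between introns of 6892 and 2467 bases, begins at the first base of a codon and adds 4 codons to the reading frame. Of the 6 KDM1A transcripts annotated there, 1 contains it. KDM1A-201 is an annotated transcript that lacks it. Microexon 8a makes up 0.392% of the 3059 bases of KDM1A-202. A gene-level count adds reads from both isoforms, from the plasmid and from the cell's own gene, so none of the KDM1A values that follow separates these sources or measures the inclusion of 8a.

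**Figure D1:**
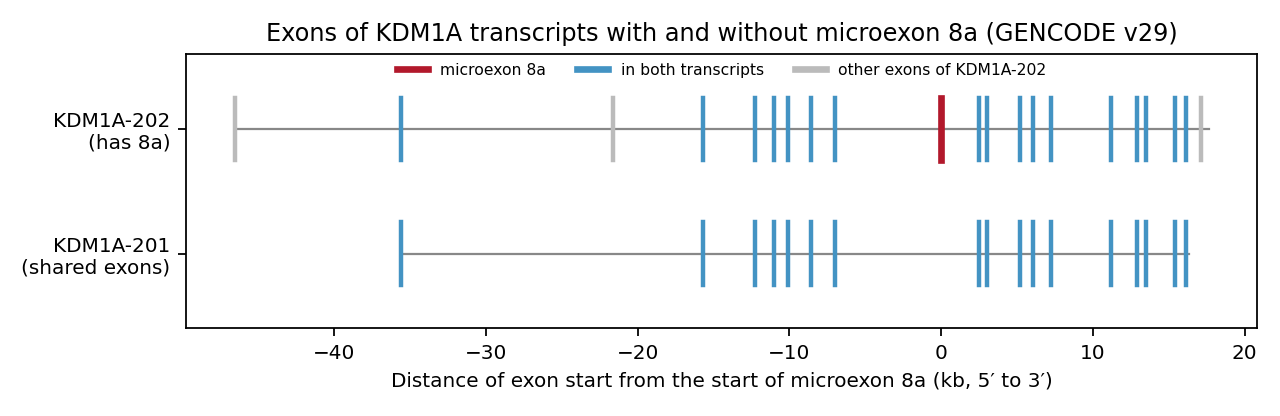
Exons of KDM1A-202 (upper row) and the exons that KDM1A-201 shares with it (lower row), placed by the distance in kb of each exon's start from the start of microexon 8a. The 12-base microexon, in red, is absent from the lower row and starts 2479 bases before the next shared exon, and the grey exons of KDM1A-202, among them one of 60 bases, have other ends or are absent in KDM1A-201.

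KDM1A, the catalytic demethylase, was the 1 gene of the 8 called by edgeR at an adjusted p under 0.05, and it was higher in the groups that received it. Its counts were 34832, 25007 and 26964 in the LSD1+8a libraries, 6453, 6889 and 6145 in the LSD1 libraries, 1117, 1001 and 1093 in the SRRM4 libraries and 1191, 1278 and 1231 in the EV libraries. The 3 LSD1+8a libraries lay far above the 3 LSD1 libraries, which lay far above all others, while the SRRM4 and EV libraries overlapped once scaled for depth. Scaled to the total count of each library, as CPM, the means were 2268 ± 316 in LSD1+8a, 540 ± 40.5 in LSD1, 96.3 ± 4.06 in SRRM4 and 94.3 ± 0.828 in EV (SD, n = 3 each). By mean TPM, KDM1A ranked 122nd of 13001 genes in LSD1+8a, 444th in LSD1, 3434th in SRRM4 and 3356th in EV. A mean over bulk RNA cannot tell a larger share of transfected cells from more plasmid RNA per transfected cell, nor fewer cells of a type from less RNA per cell.

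KDM1A was 24.0-fold higher in LSD1+8a than in EV (log2 fold change 4.59, 95% interval 4.33 to 4.85, SE 0.113, edgeR adjusted p = 9.1e-08). In LSD1 it was 5.72-fold higher than in EV (log2 2.52, 2.25 to 2.78, SE 0.115, adjusted p = 8.55e-05). The LSD1+8a group also exceeded the LSD1 group, by 4.20-fold (log2 2.07, 1.85 to 2.29, adjusted p = 1.54e-05), so the groups set against each other to compare the isoforms differed in the amount of KDM1A RNA as well as in the isoform. SRRM4 was lower than both of these groups, with a log2 fold change of −4.56 against LSD1+8a (adjusted p = 4.18e-08) and −2.49 against LSD1 (adjusted p = 3.25e-06). In SRRM4 against EV the log2 fold change was 0.03 (−0.27 to 0.34, adjusted p = 0.937). With only these 2 groups in the fit the log2 fold change was again 0.03, with an interval of −0.06 to 0.12 (adjusted p = 0.754). The 4-group model shares 1 spread over groups whose KDM1A SD ran from 0.828 to 316 CPM.

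Of the 8 genes, 1 was called in LSD1+8a against EV, where 0.346% of all genes were called at an adjusted p under 0.05. The same count of 1 was found in LSD1 against EV (0.1% of all genes), LSD1+8a against LSD1 (0.323%), SRRM4 against LSD1+8a (7.58%) and SRRM4 against LSD1 (7.05%), and in each case the gene was KDM1A. In SRRM4 against EV none of the 8 was called, where 7.68% of all genes were. For the 7 partners, edgeR, DESeq2, limma-voom and limma-trend on log2(TPM + 1) each made 0 calls in all 6 comparisons. With 0.1% to 7.68% of all genes called by edgeR, 0 calls among 7 genes say little about the partners. In LSD1 against EV the 0 of DESeq2 carries little weight, here and for the gene lists below. A gene without an adjusted p counts as not called. The authors' deposited table gives no adjusted p in that comparison to 12350 genes, the 7 partners among them. At an unadjusted p under 0.05, edgeR found 0 of 7 in LSD1+8a against EV, 0 in LSD1 against EV, and 1 in each of the other 4 comparisons (HMG20B in SRRM4 against EV and against LSD1, ZMYM2 in LSD1+8a against LSD1, PHF21A in SRRM4 against LSD1+8a). At that threshold over all 13001 genes, 467 were higher and 420 lower in LSD1+8a against EV, and 402 and 364 in LSD1 against EV. In SRRM4 against EV the counts were 1405 and 1293, and in LSD1+8a against LSD1 385 and 423. They were 1434 and 1323 in SRRM4 against LSD1+8a, and 1431 and 1298 in SRRM4 against LSD1. Beside these, 0 or 1 of 7 says little about the partners. The comparisons with EV share its 3 libraries, and the members' values in each are given side by side below.

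**Figure D2:**
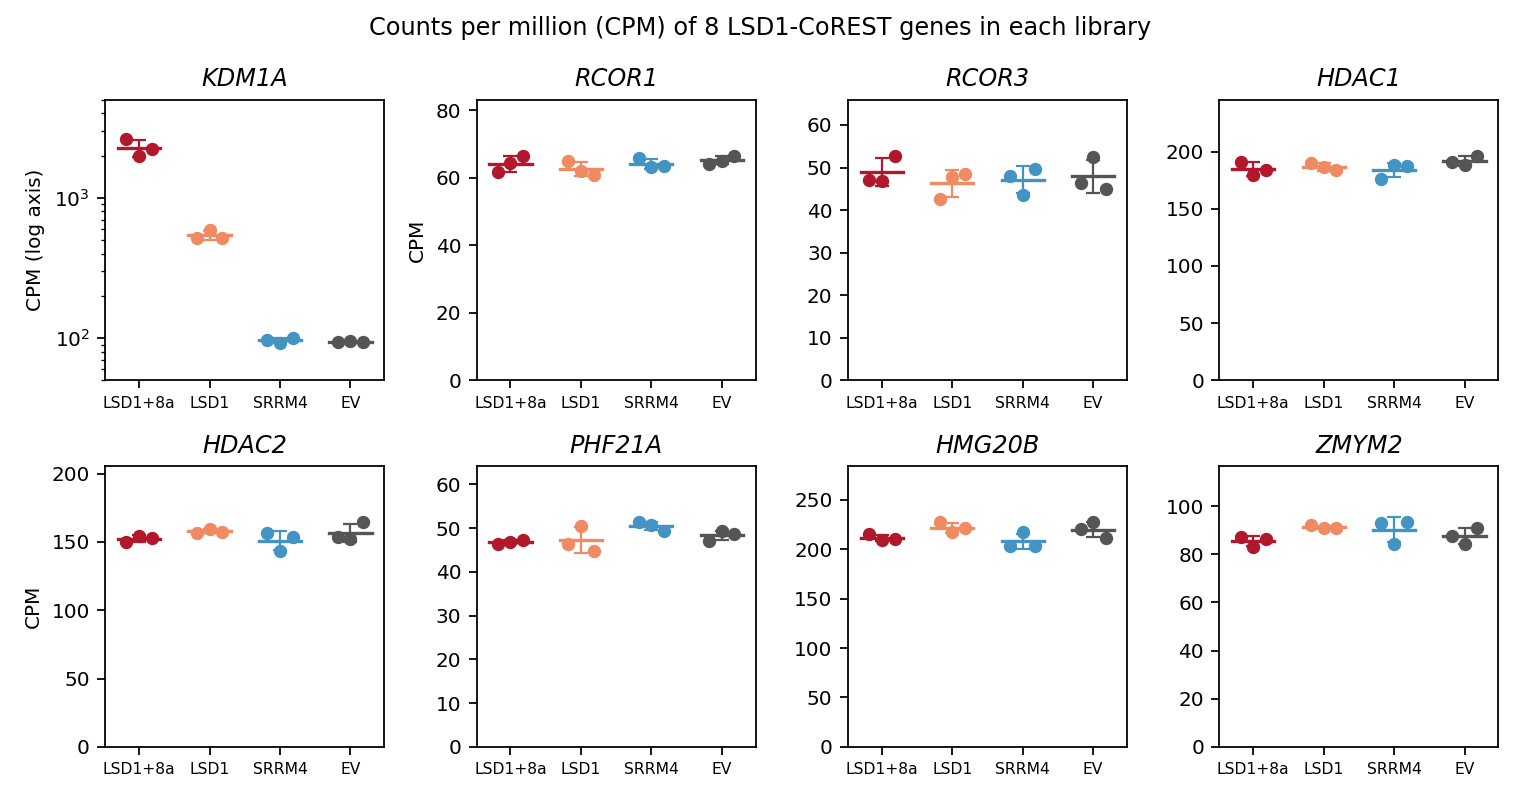
CPM of each of the 8 genes in the LSD1+8a, LSD1, SRRM4 and EV libraries (points, 3 per group; bars are means and whiskers SD). KDM1A is on a log axis and lies at 1983 to 2608 CPM in LSD1+8a and at 93.7 to 95.2 CPM in EV, whereas every other gene is on an axis from 0 and keeps nearly level means.

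RCOR1 (CoREST1) and RCOR3 (CoREST3) are the scaffolds that join LSD1 to a deacetylase. RCOR1 had 61.6, 64.4 and 66.3 CPM in LSD1+8a, 64.9, 62.1 and 60.7 in LSD1, 65.8, 63.0 and 63.4 in SRRM4, and 64.1, 64.9 and 66.4 in EV. Its groups overlapped in all 6 comparisons. The log2 fold change against EV was −0.03 (−0.12 to 0.07) in LSD1+8a, −0.06 (−0.15 to 0.04) in LSD1 and −0.02 (−0.12 to 0.07) in SRRM4. RCOR3 had 47.2, 46.9 and 52.7 CPM in LSD1+8a, 42.6, 47.7 and 48.5 in LSD1, 48.0, 43.6 and 49.7 in SRRM4, and 46.4, 52.4 and 45.1 in EV. It was the most variable partner by CPM, with a coefficient of variation within groups of 7.18%, and 1 library stood above the other 2 in both LSD1+8a and EV. Its log2 fold changes against EV were 0.03 (−0.10 to 0.16) in LSD1+8a, −0.05 (−0.19 to 0.08) in LSD1 and −0.03 (−0.16 to 0.11) in SRRM4. The adjusted p of both scaffolds was at least 0.836 in all 3 comparisons with EV.

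HDAC1 and HDAC2 are class I histone deacetylases that also serve the Sin3 and NuRD complexes. HDAC1 had 191, 179 and 184 CPM in LSD1+8a, 190, 186 and 184 in LSD1, 176, 188 and 187 in SRRM4, and 191, 188 and 196 in EV. The 3 SRRM4 libraries lay below the 3 EV libraries by a narrow margin, with a log2 fold change of −0.06 (−0.13 to 0.01, adjusted p = 0.336). In LSD1+8a against EV it was −0.05 (−0.12 to 0.02, adjusted p = 0.860) and in LSD1 against EV −0.04 (−0.11 to 0.03, adjusted p = 0.920). HDAC2 had 150.0, 154 and 153 CPM in LSD1+8a, 157, 159 and 157 in LSD1, 156, 143 and 153 in SRRM4, and 154, 152 and 164 in EV. The LSD1 libraries lay just above those of LSD1+8a and SRRM4 without overlap, and all groups overlapped EV. Its log2 fold changes against EV were −0.04 (−0.12 to 0.04) in LSD1+8a, 0.01 (−0.07 to 0.09) in LSD1 and −0.05 (−0.13 to 0.02) in SRRM4.

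PHF21A (BHC80) carries a PHD finger that binds H3K4 without methyl groups, the product of LSD1. It had 46.4, 46.8 and 47.2 CPM in LSD1+8a, 46.4, 50.6 and 44.7 in LSD1, 51.3, 50.7 and 49.4 in SRRM4, and 47.1, 49.3 and 48.6 in EV. The SRRM4 libraries were the highest as a group and lay above every LSD1+8a and EV library. The log2 fold change was 0.11 for SRRM4 against LSD1+8a (0.0012 to 0.22, adjusted p = 0.229) and 0.06 for SRRM4 against EV (−0.04 to 0.17, adjusted p = 0.547), so neither passed the test over all genes. Against EV it was −0.05 (−0.15 to 0.06) in LSD1+8a and −0.03 (−0.14 to 0.07) in LSD1.

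HMG20B (BRAF35) is a DNA-binding HMG-box subunit of the complex. It had 215, 209 and 211 CPM in LSD1+8a, 227, 217 and 221 in LSD1, 203, 217 and 203 in SRRM4, and 221, 227 and 212 in EV. SRRM4 replicates 1 and 3 were the lowest of all libraries, and replicate 2 overlapped EV. The log2 fold change was −0.08 for SRRM4 against EV (−0.15 to −0.01, adjusted p = 0.160) and −0.09 for SRRM4 against LSD1 (−0.17 to −0.02, adjusted p = 0.0979). Without SRRM4 replicate 2 the second comparison gave −0.13 with an adjusted p of 0.0489, and HMG20B then counted as called. In LSD1+8a against EV it was −0.06 (−0.12 to 0.01) and in LSD1 against EV 0.01 (−0.06 to 0.08). HMG20B overlaps MFSD12 on the opposite strand, a gene listed at 82.0 to 93.4 TPM, and the strand setting of the counting is not given in the sources used here, so shared reads could not be told apart.

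ZMYM2 (ZNF198) is a zinc-finger subunit that binds the complex and SUMO-modified proteins. It had 87.2, 83.1 and 86.3 CPM in LSD1+8a, 92.0, 91.0 and 90.8 in LSD1, 93.1, 84.5 and 93.3 in SRRM4, and 87.7, 84.3 and 90.9 in EV. The LSD1+8a libraries lay below the tightly grouped LSD1 libraries, with a log2 fold change of −0.09 (−0.18 to −0.0035, adjusted p = 0.781). Relative to EV it was −0.03 (−0.12 to 0.05) in LSD1+8a, 0.06 (−0.03 to 0.15) in LSD1 and 0.04 (−0.05 to 0.13) in SRRM4.

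Across the 7 partners the intervals bound how large a difference the edgeR model of the counts allows. Other processing gave some estimates outside them. Over the 23 alternatives the log2 fold change reached 0.25 for ZMYM2 in LSD1 against EV. For PHF21A in LSD1+8a against LSD1 it reached −0.22, and neither gene was called in those comparisons. In LSD1+8a against EV all 7 intervals lay between 0.899-fold and 1.12-fold, in LSD1 against EV between 0.878-fold and 1.11-fold, and in SRRM4 against EV between 0.895-fold and 1.13-fold. In LSD1+8a against LSD1 they lay between 0.881-fold and 1.16-fold, in SRRM4 against LSD1+8a between 0.878-fold and 1.16-fold, and in SRRM4 against LSD1 between 0.891-fold and 1.15-fold. The median log2 fold change of the 7 was −0.04 in LSD1+8a, −0.03 in LSD1 and −0.03 in SRRM4 against EV, beside medians over all genes of 0.00092, 0.0019 and −0.0011. Per gene, the highest group mean in CPM was 1.04 to 1.08 times the lowest. HDAC1 and HDAC2 are related in sequence, as are RCOR1 and RCOR3, and how reads shared between relatives were assigned is not given in the sources used here.

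**Figure D3:**
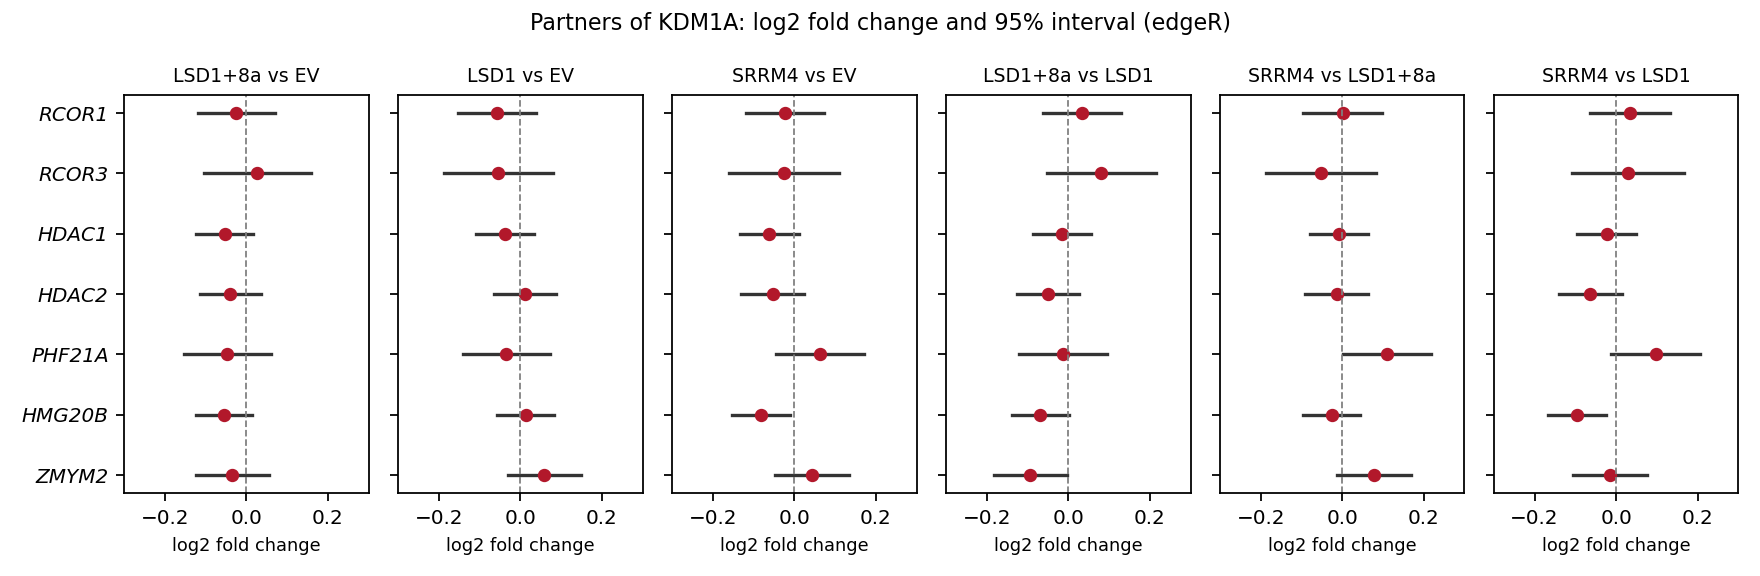
Log2 fold change (points) and 95% interval (lines) of the 7 partners in the 6 comparisons, from the edgeR model of all 4 groups. Every point lies between −0.095 and 0.11, and the intervals that leave out 0 are those of HMG20B in SRRM4 against EV and against LSD1, ZMYM2 in LSD1+8a against LSD1 and PHF21A in SRRM4 against LSD1+8a, none of which passed after adjustment.

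TPM allows levels to be compared between genes. In EV the order was HMG20B (199 ± 6.25 TPM), HDAC2 (148 ± 7.11), HDAC1 (135 ± 0.817), KDM1A (44.8 ± 3.07), RCOR3 (41.8 ± 2.15), ZMYM2 (28.1 ± 2.46), PHF21A (18.9 ± 1.21) and RCOR1 (16.7 ± 2.28; SD, n = 3 each). KDM1A and RCOR3 overlapped in EV, as did PHF21A and RCOR1, and the other neighbours in this order did not. RCOR1 drew more counts than RCOR3 (65.1 against 48.0 CPM in EV) but had fewer TPM, which are scaled to length. The order of the partners held widely: ZMYM2 was 6th of the 8 in 12 of 12 libraries and RCOR1 was last in 11 of 12. HMG20B was first in the 6 SRRM4 and EV libraries and second in the 6 others, where KDM1A was first. HDAC1 and HDAC2 overlapped in LSD1+8a and in SRRM4 and did not in LSD1 or EV.

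The ratio of KDM1A to its scaffolds followed KDM1A. KDM1A over the sum of RCOR1 and RCOR3, in TPM, was 24.0, 17.0 and 18.5 in LSD1+8a, 4.72, 5.32 and 4.21 in LSD1, 0.716, 0.820 and 0.681 in SRRM4, and 0.763, 0.713 and 0.821 in EV. By TPM, EV and SRRM4 cells thus had less KDM1A RNA than RCOR1 and RCOR3 RNA together, and both LSD1 plasmid groups had more. The means were 19.9 ± 3.70 in LSD1+8a, 4.75 ± 0.558 in LSD1, 0.739 ± 0.0724 in SRRM4 and 0.766 ± 0.0537 in EV (SD, n = 3 each). All 3 libraries of LSD1+8a, and all 3 of LSD1, lay above all 3 of EV, with an exact two-sided permutation p of 0.1 in each case, the smallest that 3 against 3 libraries can give (0.3 after Benjamini-Hochberg adjustment over 24 ratio tests). For SRRM4 against EV the exact permutation p was 0.7.

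The balance between paralogous subunits moved little. RCOR1 over RCOR3 was 0.409 ± 0.0498 in LSD1+8a, 0.376 ± 0.0244 in LSD1, 0.351 ± 0.0625 in SRRM4 and 0.402 ± 0.0743 in EV. HDAC1 over HDAC2 was 0.896 ± 0.149 in LSD1+8a, 0.866 ± 0.0743 in LSD1, 0.917 ± 0.152 in SRRM4 and 0.914 ± 0.0408 in EV. For these 2 ratios no exact permutation p was below 0.3. The summed TPM of the 7 partners was 567 to 597 in LSD1+8a, 617 to 624 in LSD1, 560 to 606 in SRRM4 and 580 to 592 in EV. The LSD1 libraries stood above all others by this sum (log2 difference from EV 0.08, exact permutation p = 0.1), but the same sum in CPM differed from EV by −0.01 on the log2 scale.

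**Figure D4:**
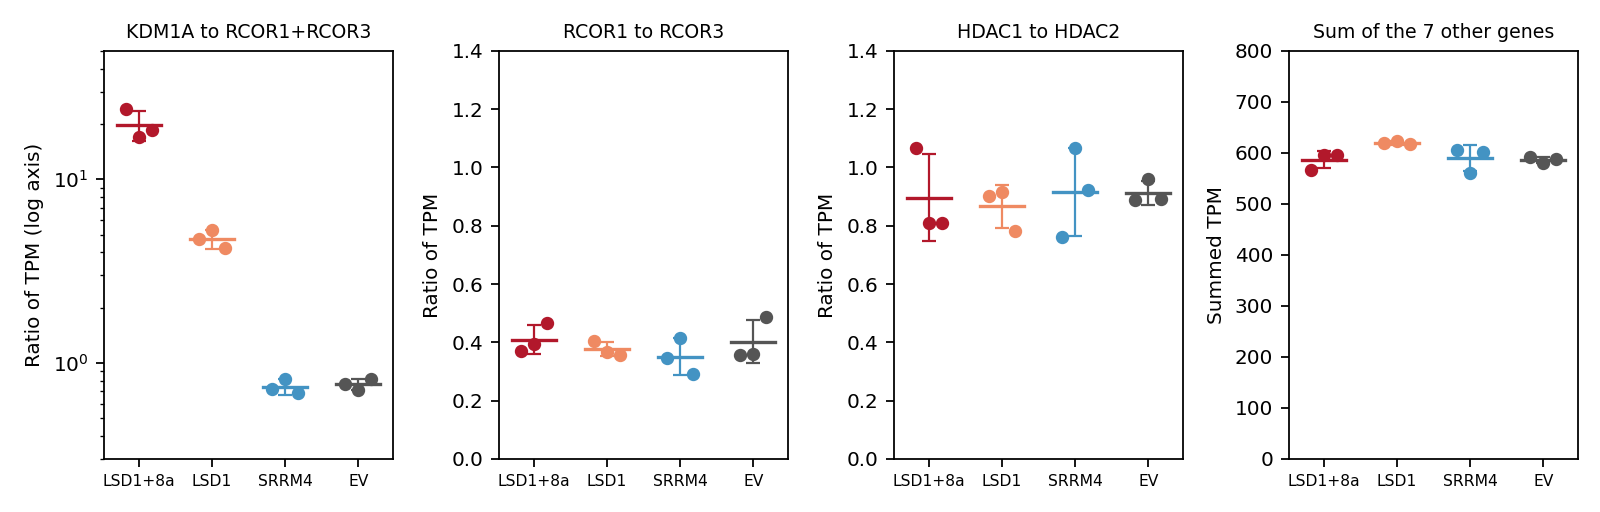
Ratios of TPM and the summed TPM of the 7 partners in the LSD1+8a, LSD1, SRRM4 and EV libraries (points; bars are means and whiskers SD, n = 3). KDM1A over RCOR1+RCOR3, on a log axis, falls below 1 in SRRM4 and EV and reaches 17.0 to 24.0 in LSD1+8a, while the 2 paralog ratios overlap between groups.

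TPM of several members spread more between replicates than their counts did. The coefficient of variation within groups was 12.6% in TPM and 3.63% in CPM for ZMYM2, 11.6% and 3.51% for PHF21A, 10.5% and 3.22% for HDAC2, and 10.2% and 2.93% for RCOR1. For HMG20B it was 2.64% in TPM and 2.95% in CPM, and for HDAC1 3.09% and 2.76%. Counts divided by TPM follow the transcript length assigned to a gene in a library, and this implied length ranged over 0.48 on the log2 scale across the 12 libraries for both PHF21A and ZMYM2, against 0.08 for HMG20B. PHF21A shows the spread: replicates 1, 2 and 3 of LSD1 had 23.9, 24.2 and 16.9 TPM with 46.4, 50.6 and 44.7 CPM. Over 8 genes and 6 comparisons, 48 exact permutation tests of implied length gave p values of 0.1 or more and adjusted values of 0.8 or more. Since 0.1 is the smallest p of 3 against 3 libraries, no test could have passed, and equal lengths are not shown. The exact permutation p was at this floor for ZMYM2 in LSD1 against EV (log2 −0.16). It was also at the floor for KDM1A in SRRM4 against LSD1 (0.08) and against LSD1+8a. For KDM1A the implied length differed by −0.06 on the log2 scale between LSD1+8a and EV (exact permutation p = 0.4), by 0.06 between SRRM4 and EV (p = 0.5) and by 0.12 between SRRM4 and LSD1+8a (p = 0.1).

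For each member, the gene with the most similar profile over the 12 libraries was found by Pearson's r on log2 CPM among 13000 genes, as a description of these libraries. The 3 genes nearest to KDM1A were AC018865.8 (r = 0.916), CYP4F30P (0.888) and AL589743.1 (0.869), whose symbols are those of a clone-named gene, a cytochrome P450 pseudogene and another clone-named gene. CYP4F30P averaged 15.0 ± 1.71 CPM in LSD1+8a, 13.1 ± 1.67 in LSD1, 10.9 ± 0.490 in SRRM4 and 10.5 ± 0.466 in EV. AC018865.8 averaged 34.2 ± 0.418 CPM in LSD1+8a, 31.6 ± 0.694 in LSD1, 27.0 ± 1.92 in SRRM4 and 28.4 ± 0.809 in EV (SD, n = 3 each). KDM1A falls into 3 separate levels, so these values reflect group means. They share depth and libraries with KDM1A. For the partners the nearest genes were WASF3 for RCOR1 (0.909), TMEM260 for RCOR3 (0.868), MAOA for HDAC1 (0.920), CDK19 for HDAC2 (0.879), SPTSSA for PHF21A (0.901), UBE4B for HMG20B (0.924) and CSRP2BP for ZMYM2 (0.933). Each of these r values is the highest of 13000 over only 12 libraries. Whether they exceed what such a choice gives by itself was not tested. None of the 7 partners was nearest to another member.

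Other genes that bind LSD1-CoREST, bring it to DNA or govern the stability of its subunits were read from a list of 23, of which 19 were measured. None of the 19 was called in LSD1+8a against EV, in LSD1 against EV or in LSD1+8a against LSD1 by edgeR, DESeq2, limma-voom or limma-trend, with 0, 0 and 1 at an unadjusted edgeR p under 0.05 (SIRT1, a deacetylase, log2 0.16 in LSD1+8a against LSD1, adjusted p = 0.744). The smallest p values in LSD1 against EV belonged to REST, the repressor of neuronal genes that recruits CoREST (log2 −0.11, adjusted p = 0.843), and EHMT1, a histone H3 lysine 9 methyltransferase (−0.08, adjusted p = 0.846). With 0.346%, 0.1% and 0.323% of all genes called in these comparisons, a count of 0 in 19 says little about the list. The unadjusted counts, set beside those over all genes given above, say little too. The median log2 fold change of the 19 was 0.01 in LSD1+8a, −0.01 in LSD1 and −0.02 in SRRM4 against EV.

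In SRRM4 against EV 1 of the 19 fell, a share no higher than the 7.68% called over all genes. SVIL, which encodes supervillin, a protein reported with LSD1+8a in neuronal cells, was at 14.9 to 15.9 CPM in SRRM4 and 18.04 to 19.73 CPM in EV (log2 −0.29, SE 0.0866, adjusted p = 0.0344). This call was lost with DESeq2 (adjusted p = 0.181) and without EV replicate 1 or 2 or any 1 of the SRRM4 replicates. SNAI1, a transcriptional repressor that recruits LSD1, had 3.11 to 3.77 CPM in SRRM4 and 2.01 to 2.605 in EV (log2 0.51, adjusted p = 0.137). In SRRM4 against LSD1+8a 2 of the 19 fell, beside 7.58% called over all genes, so the count says little about the partners as a list. They were ZNF217, a zinc-finger partner of CoREST (log2 −0.13, adjusted p = 0.0111, lost without SRRM4 replicate 1), and USP28, a deubiquitinase that stabilises LSD1 (−0.22, adjusted p = 0.0356, lost with DESeq2 and without LSD1+8a replicate 1 or 3 or SRRM4 replicate 2). In SRRM4 against LSD1 none was called by edgeR, nor by DESeq2 or limma-voom. At an unadjusted edgeR p under 0.05 there were 5 of the 19, beside 1431 higher and 1298 lower of all 13001 genes. That count too says little about the list. The third CoREST gene, RCOR2, was low in all groups (1.34 to 1.64 TPM by group mean).

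Enzymes and subunits that add methyl groups to H3K4 or, like LSD1, remove them were read from a list of 13, all measured. None was called in LSD1+8a against EV, LSD1 against EV or LSD1+8a against LSD1 by any of the same tools, with 0, 1 and 0 at an unadjusted edgeR p under 0.05 (KDM5B, an H3K4 demethylase, log2 −0.08 in LSD1 against EV, adjusted p = 0.828). With so few genes called over the whole table in these comparisons, a count of 0 in 13 says little about the list. Nor do the unadjusted counts say much, beside those over all genes given above. In SRRM4, 1 of the 13 was called against EV (7.68% of all genes), 1 against LSD1+8a (7.58%) and 2 against LSD1 (7.05%). Beside these shares, such small counts say little about the list. KMT2D, an H3K4 methyltransferase of enhancers, rose in SRRM4, with 269.6 to 289.6 CPM in SRRM4 and 252.6 to 263.8 in EV (log2 0.12, SE 0.0338, adjusted p = 0.0268). KMT2D was also higher in SRRM4 than in LSD1+8a (0.14, adjusted p = 0.00867) and than in LSD1 (0.11, adjusted p = 0.0386). KDM5C, an H3K4 demethylase, rose in SRRM4 against LSD1 (0.12, adjusted p = 0.0294) and had an adjusted p of 0.0502 against EV, with a log2 fold change of 0.11. SETD1A, a methyltransferase, had a log2 fold change of 0.15 against EV (adjusted p = 0.0673). With DESeq2, KMT2D in SRRM4 against EV had an adjusted p of 0.0525, and its call in that comparison was also lost without EV replicate 1 or 3 or SRRM4 replicate 2 or 3. KMT2D against LSD1+8a lost its call without LSD1+8a replicate 2 or SRRM4 replicate 3. Against LSD1, KMT2D was called in 12 of 23 alternatives and KDM5C in 16 of 23, and both calls were lost with DESeq2 (adjusted p = 0.0832 for KMT2D and 0.0881 for KDM5C) and without LSD1 replicate 2 or SRRM4 replicate 2 or 3. KMT2D also lost it with upper-quartile factors and without EV replicate 1, LSD1+8a replicate 3 or LSD1 replicate 3, and KDM5C without LSD1 replicate 1. All 7 calls on both lists were lost with limma-trend on log2(TPM + 1).

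SRRM4 libraries were the shallowest, and their summed luminal markers were the lowest of the groups. KLK3, prostate-specific antigen, had the largest share of that sum (2681 to 3431 TPM over the libraries). Its log2 fold change in SRRM4 was −0.23 against EV (edgeR adjusted p = 1.45e-06). The other markers are not given singly here, so a shift of the marker set as a whole is not shown. The part of depth and of these markers in the results on SRRM4 was not tested.

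**Figure D5:**
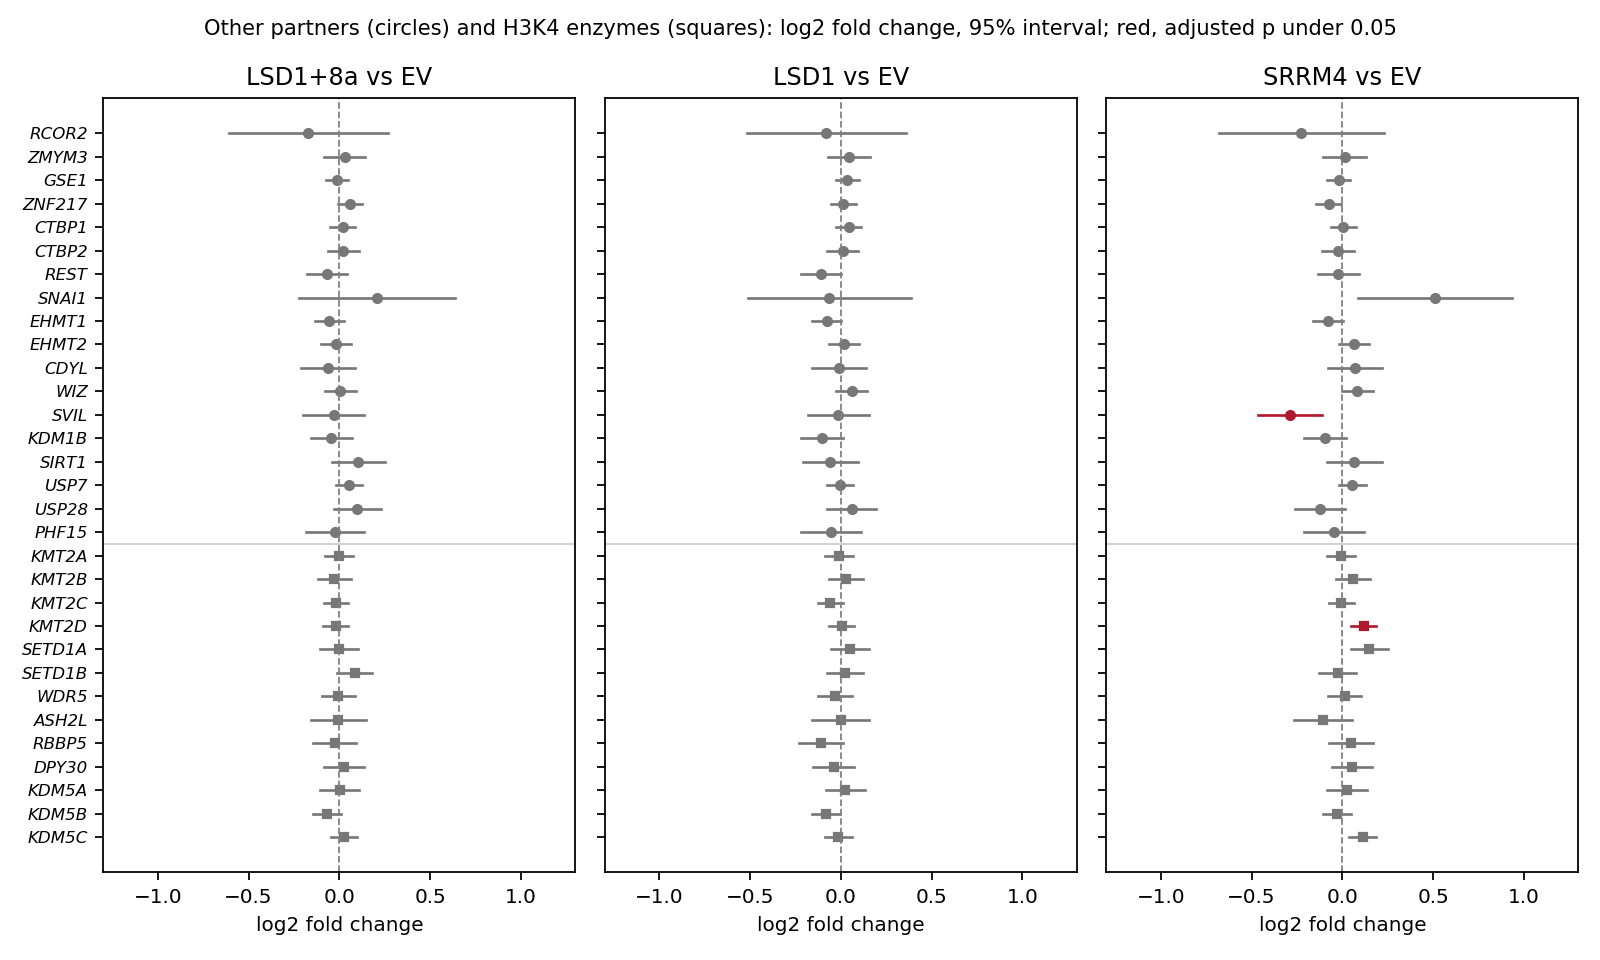
Log2 fold change (symbols) and 95% interval (lines) against EV of 18 of the 19 other LSD1-CoREST partners (circles, above the grey line) and 13 H3K4 methylation genes (squares, below it) in LSD1+8a, LSD1 and SRRM4. Red marks an adjusted p under 0.05, which SVIL (lower) and KMT2D (higher) reached in SRRM4 and no gene reached in the other panels, and PHF15 is an older symbol of JADE2.

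In the authors' deposited table the log2 fold changes of the 8 members against EV differed by at most 0.00229 from those of edgeR. The authors' deposited table gives KDM1A an adjusted p of 2.49e-149 in LSD1 against EV and 0.957 in SRRM4 against EV. For LSD1 against EV the adjusted p of the 7 partners is not given there, as for 12350 genes in all.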

How the data were processed

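The deposited tables hold whole-number counts per gene and TPM for 12 libraries, and a table of log2 fold changes with p-values for each comparison with EV, made by the authors. Per the submitters' processing notes the authors used STAR 2.5.3a, RSEM 1.2.31 and hg19; the part of each tool, the strand setting and the treatment of reads shared between genes are not given in the sources used here. Per the labels, libraries were made with an Illumina TruSeq kit.

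Counts were scaled by TMM and fitted in 1 model of the 4 groups with the robust quasi-likelihood F test of edgeR 4.0.16 in R 4.3.3. Benjamini-Hochberg adjustment ran over all 13001 genes, with calls at an adjusted p under 0.05. The filter on low counts removed 0 genes. Fold changes are the first-named group over the second, and intervals cover 95%. DESeq2 1.42.0, limma-voom and limma-trend on log2(TPM + 1) or log2(TPM + 0.1) with limma 3.58.1, other size factors and filters, a replicate block and leaving out each library were alternatives. Ratios and implied lengths were compared by exact two-sided permutation tests over libraries. The fitting step was tested on simulated data.

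The members and the gene lists were chosen with earlier results of these data known. Beside the members, the genes named are the called ones and those of smallest p in each list, and the genes most like each member. Among the 12 pairs of libraries within groups, counts differed by more than sampling noise (chi-square per degree of freedom 1.44 to 2.88). Some items measured are not reported here.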

Additional observations from a re-analysis of the deposited data

How the results depend on the processing

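In the 5 comparisons where KDM1A was called it kept its direction and its call in all 23 alternatives. In SRRM4 against LSD1, leaving out 1 library gave 1 to 2 members called, the second being HMG20B without SRRM4 replicate 2; under every other alternative the count of members called was as reported. The replicate numbers did not pair the libraries: the median correlation of deviations was −0.0774 between libraries with the same number (18 pairs) and 0.031 between others (36 pairs), and 2 of 12 libraries correlated best with their own number. With the number as a replicate block, 1 member was called in LSD1+8a against EV and 887 genes in all were called in SRRM4 against EV, beside 999 without the block. The block ended the call of KMT2D in SRRM4 against LSD1.

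With CPM in place of TPM, the log2 ratio of KDM1A to RCOR1+RCOR3 was −4.53 in SRRM4 against LSD1+8a and −2.52 in SRRM4 against LSD1. The log2 ratio of RCOR1 to RCOR3 became −0.046 in LSD1+8a against LSD1 and 0.055 in SRRM4 against LSD1+8a. The summed partners differed by −0.042 in LSD1+8a against EV, −0.0063 in LSD1 against EV, −0.041 in SRRM4 against EV and −0.035 in LSD1+8a against LSD1.

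Several differences near 0, none of them called, changed sign under limma-trend on log2(TPM + 1) and on log2(TPM + 0.1), given here in that order. Between LSD1+8a and EV they were 0.0092 and 0.0096 for RCOR1, −0.024 and −0.025 for RCOR3, 0.0037 and 0.0038 for HDAC1, 0.043 and 0.044 for HDAC2, and 0.103 and 0.107 for ZMYM2. For LSD1 against EV they were 0.0629 and 0.0633 for HDAC1, and 0.173 and 0.180 for PHF21A. For SRRM4 against EV they were −0.0053 and −0.0054 for KDM1A, 0.0986 and 0.10 for RCOR3, 0.00991 and 0.00997 for HDAC1, and 0.0177 and 0.0178 for HDAC2. For SRRM4 against LSD1+8a they were −0.0985 and −0.104 for RCOR1 (−0.0088 with upper-quartile factors), 0.123 and 0.125 for RCOR3, 0.00617 and 0.00621 for HDAC1, 0.00395 and 0.00397 for HMG20B, and −0.0286 and −0.0296 for ZMYM2. Between SRRM4 and LSD1 they were −0.0568 and −0.0585 for PHF21A.

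Leaving out 1 library at a time also turned uncalled differences. Between LSD1+8a and EV the range was −0.050 to 0.0036 for RCOR1 and −0.030 to 0.096 for RCOR3. In LSD1 against EV it was −0.098 to 0.016 for RCOR3, −0.0098 to 0.046 for HDAC2, −0.085 to 0.0030 for PHF21A and −0.013 to 0.038 for HMG20B. For SRRM4 against EV it was −0.070 to 0.043 for RCOR3. Between LSD1+8a and LSD1 it was −0.041 to 0.0055 for HDAC1 and −0.050 to 0.038 for PHF21A. Between SRRM4 and LSD1+8a it was −0.027 to 0.026 for RCOR1, −0.092 to 0.0034 for RCOR3, −0.028 to 0.022 for HDAC1 and −0.040 to 0.023 for HDAC2. Between SRRM4 and LSD1 it was −0.030 to 0.080 for RCOR3, −0.039 to 0.0067 for HDAC1 and −0.039 to 0.030 for ZMYM2. The cause of these turns was not tested.

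Counts of called genes over the whole table moved by more than 1.5 times in some settings. In LSD1 against EV 13 genes were called, with 6 on TPM, 20 with only the 2 groups in the fit and 5 without LSD1 replicate 3. The 45 calls in LSD1+8a against EV compare with 24 on TPM, and the 42 in LSD1+8a against LSD1 with 19 to 21 on TPM. The 999 calls in SRRM4 against EV compare with 563 by DESeq2, 325 to 327 on TPM and 661 without SRRM4 replicate 2. The 986 calls in SRRM4 against LSD1+8a compare with 529 by DESeq2, 203 to 211 on TPM and 561 to 653 without LSD1+8a replicate 2 or 3 or SRRM4 replicate 1 or 2. The 916 calls in SRRM4 against LSD1 compare with 499 by DESeq2, 178 to 185 on TPM and 488 to 605 without LSD1 replicate 2 or 3 or SRRM4 replicate 2. Calls on the list of other partners ranged over 0 to 1 in SRRM4 against EV, 0 to 2 in SRRM4 against LSD1+8a and 0 to 1 in SRRM4 against LSD1, and on the H3K4 list over 0 to 2, 0 to 1 and 0 to 2 in the same comparisons.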
